A study of Danio rerio with 4 samples.

Results

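The genes described here are the cadherins and the non-clustered protocadherins of the zebrafish, followed in cells sorted from Tg(nkx2.5:ZsYellow) reporter embryos. They were chosen by name. A gene ID was taken when its symbol, in any case, was cdh or pcdh followed by a number and at most a letter a or b, and when it had at least 10 counts in at least 2 libraries. The name rule found 44 of the 25873 gene IDs in the deposited table, and 33 of these reached the count minimum, 17 with a cadherin name and 16 with a protocadherin name. Genes of the clustered protocadherin families were left out. Of the 33, 3 entered through a letter after a cdh number (cdh7b, cdh10a and cdh18a).

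ZsYellow-positive cells, described by the submitters as progenitors of the heart and pharynx together with heart muscle cells, were set against ZsYellow-negative cells taken from the same embryos. Each fraction had 2 replicate libraries. All embryos were at 14 to 16 somites, were of a laboratory strain and carried the transgene, which makes a yellow fluorescent protein under the control of nkx2.5, a homeobox gene of the early heart and pharyngeal mesoderm. The fractions are therefore defined by reporter fluorescence, and each is a mixture of cell types.

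Cadherins are transmembrane proteins that hold neighbouring cells together in the presence of calcium. Classical cadherins bind like molecules on the next cell and are tied to the actin cytoskeleton inside the cell through catenins. They are divided into type I, which includes E-cadherin and N-cadherin, and type II, which includes VE-cadherin of blood vessels. Protocadherins share the extracellular repeats but lack the catenin-binding tail. The non-clustered δ-protocadherins fall into a δ-1 group (pcdh1, pcdh7, pcdh9 and pcdh11) and a δ-2 group (pcdh8, pcdh10, pcdh17, pcdh18 and pcdh19) and are known for roles in cell sorting and tissue movement in the embryo. Many names in the table are written in the human style, and PCDH1, PCDH10 and PCDH18 each name 2 of the IDs, which are told apart here by their ID. The table does not say which is the a and which the b copy, and reads of similar copies could have been divided between them.

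Library totals ran from 31996733 to 40133331 counts. NKX2-5, the gene the reporter follows, had 425.6 and 513.5 CPM (counts scaled to library size and composition) in the positive libraries and 5.75 and 5.77 CPM in the negative libraries. The labels were checked with marker lists chosen with earlier results of these data known. By the test described below, 9.02% of all genes tested were called higher in positive cells and 8.07% lower. The cardiopharyngeal list includes NKX2-5 itself, whose reporter defined the sort. Of the marker IDs tested, 10 of 10 cardiopharyngeal and 7 of 8 heart muscle IDs were higher in positive cells. The list of blood vessel lining (endothelial) genes was also higher, with 10 of 11 IDs. The somite and presomitic list was lower, with 9 of 10 IDs, and so was the blood list, with 8 of 10, although its SPI1 was higher. The remaining heart muscle ID, a scarce MYH6 (ENSDARG00000114031), was lower too. It had 0.417 and 0.458 CPM in positive cells and 1.86 and 1.45 CPM in negative cells. The notochord list was lower in 4 of 5 IDs, with a median log2 fold change of -1.77. The hatching gland list had 3 of 4 IDs lower and 1 higher, with a median of -1.39. In the endoderm list 1 of 7 IDs was higher and 1 lower, with a median of 0.23. Markers of other tissues were detected in both fractions. The 1 marker ID with 0 counts in any library was a second TNNT2 ID, at 0 in both negative libraries.

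Expression was compared with edgeR's quasi-likelihood test on the whole table, and a gene was called at a Benjamini-Hochberg adjusted p under 0.05 over all 19084 genes tested. All 33 members passed the test's own filter on low counts. Of them, 7 were higher in positive cells, 8 were lower and 18 were not called. The share of all genes tested that was called was 17.1%, with 9.02% higher and 8.07% lower, against 45.5% of the members. An unadjusted p under 0.05 was found for 17 members, beside 30.2% of all genes. Members that averaged 10 CPM or more were called in 11 of 17 cases, where 18.6% of all genes at that level were called. The members moved in opposite directions, so that their median log2 fold change was 0.04, beside -0.01 over all genes tested. In 22 members the positive libraries did not overlap the negative ones, 12 above and 10 below, beside 58.3% of all genes tested, 27.9% above and 30.3% below. Fewer members were called higher without a negative library. The number was 5 without negative replicate 1 and 3 without negative replicate 2, and the number called lower was 6 and 8 in the same fits. Over all genes the number called higher was also smaller in these fits, 950 and 852, against 1721 with all libraries. In those fits 1 group holds a single library and its spread is taken from the other pair.

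**Figure D1:**
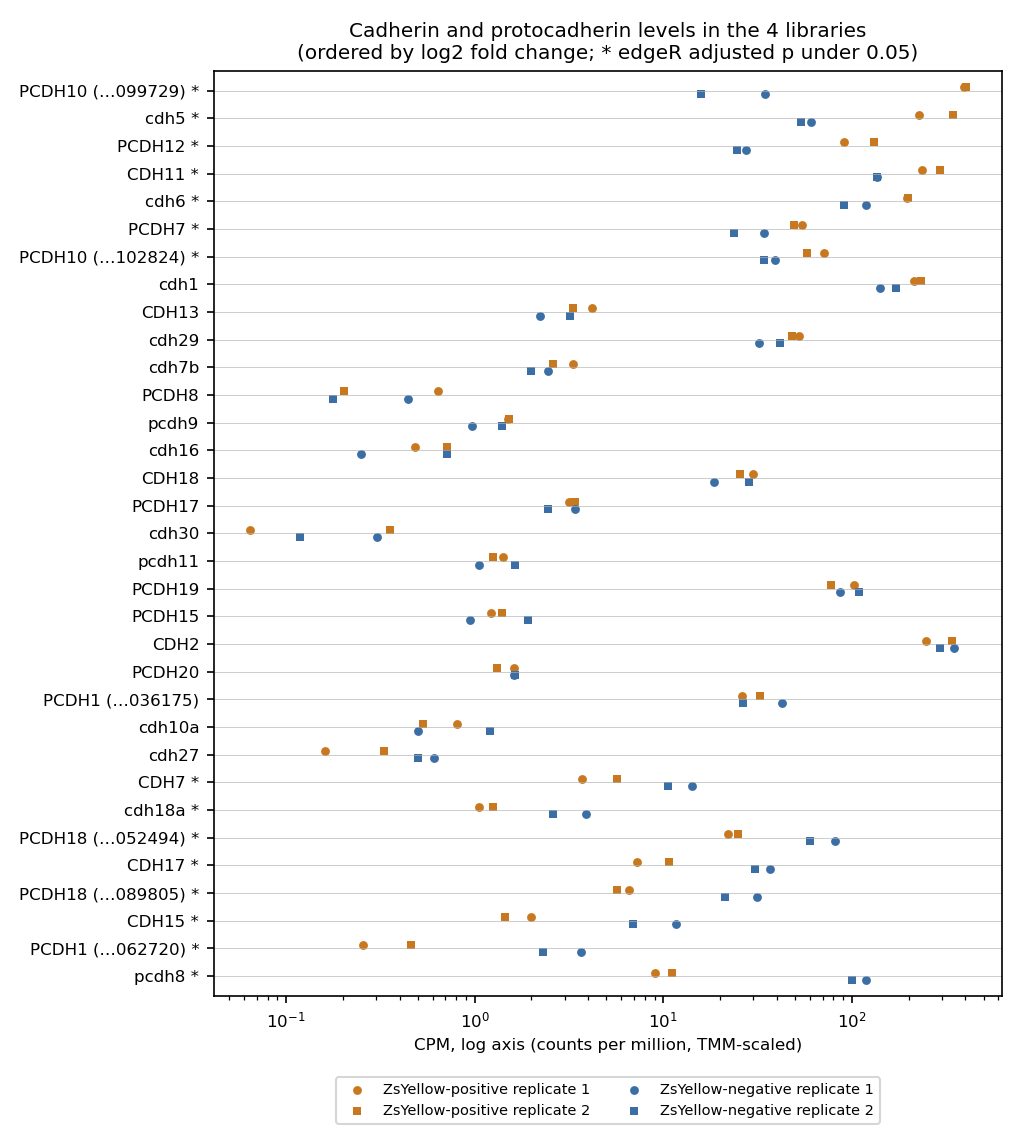
Level of each of the 33 cadherin and protocadherin IDs in CPM on a log axis, with ZsYellow-positive libraries in orange above ZsYellow-negative libraries in blue on each row, circles for replicate 1 and squares for replicate 2. Rows run from the highest to the lowest log2 fold change, an asterisk marks the 15 called members, and the last 6 digits of the ID follow a name that 2 IDs share.

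The largest increase was that of a δ-2 protocadherin, PCDH10 (ENSDARG00000099729). Protocadherin 10 is known from mammals for axon growth and for cell movement. It had 12277 and 15894 counts in the positive libraries, against 1243 and 539 counts in the negative libraries. In CPM it stood at 394.1 and 404.4 in positive cells and at 34.5 and 15.9 in negative cells. The positive libraries lay within 7.26 CPM (SD, n = 2) of their mean and far above the negative ones, which themselves differed. The fold change was 15.8, or 3.98 on the log2 scale (edgeR adjusted p 0.000116, SE 0.345). It was 4.64 without negative replicate 1 and 3.54 without negative replicate 2, and it stayed called in both fits.

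This ID also had the highest level of any member in both positive libraries, on the CPM scale and per length. On the TPM scale, which corrects for transcript length, it reached 355.7 and 380.8 in positive cells and 29.6 and 16.3 in negative cells. It made up 45.3% and 41.2% of the summed TPM of all members in the positive libraries, against 6.57% and 4.58% in the negative libraries. As a share of summed CPM, which ignores length, it was 19.6% and 17.5% against 2.40% and 1.22%. The difference between the scales comes from the length that the deposited TPM assigns to this ID. Its TPM was 0.856 to 1.02 times its CPM. In the other 16 members that averaged 10 CPM or more, the ratio was 0.174 to 0.428. The level of this ID relative to other genes therefore depends on that length. Its ratio was 0.856 in negative replicate 1 and 1.02 in negative replicate 2, while that of cdh5 was 0.196 and 0.174. The assigned length thus differed between libraries, and the fold change above was taken from counts without it.

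The other ID of the same name, PCDH10 (ENSDARG00000102824), changed far less. It had 71.1 and 58.2 CPM in positive cells and 39.0 and 34.2 CPM in negative cells. The positive libraries were both above the negative ones. The log2 fold change was 0.82 (edgeR adjusted p 0.0148, SE 0.182). The call was lost without negative replicate 1 (0.92, adjusted p 0.0669), without negative replicate 2 (0.74, adjusted p 0.127) and with limma on log2(TPM + 1) (0.72, adjusted p 0.0949) or log2(TPM + 0.1) (0.77, adjusted p 0.0882). Summed over both IDs, which does not depend on how reads were divided between them, PCDH10 came to 465.3 and 462.5 CPM in positive cells and 73.6 and 50.2 CPM in negative cells.

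**Figure D2:**
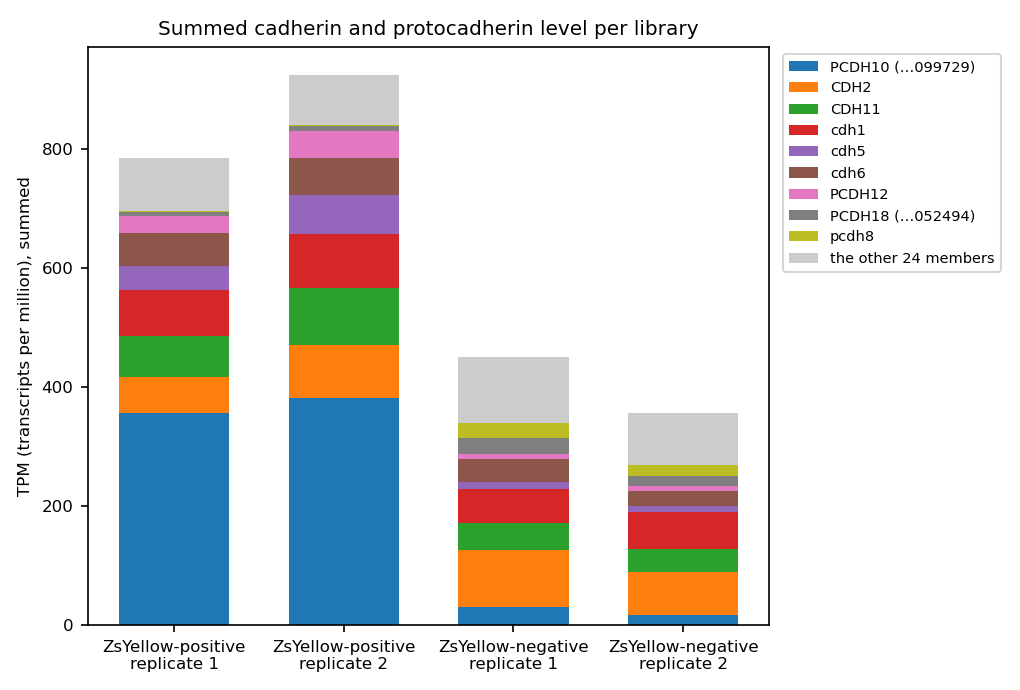
Summed TPM of the 33 members in each library, positive libraries to the left of negative ones, divided into the 9 members with the highest TPM in any library and the other 24. The columns reach 784.4 and 925.3 TPM in positive and 449.9 and 355.9 TPM in negative libraries, and PCDH10 (ENSDARG00000099729) fills the lowest segment.

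The summed level of all members was 784.4 and 925.3 TPM in positive cells, against 449.9 and 355.9 TPM in negative cells. Without PCDH10 (ENSDARG00000099729) the sums were 428.7 and 544.5 TPM in positive cells and 420.4 and 339.6 TPM in negative cells. On the CPM scale, which does not use the assigned length, the sums were 2015.1 and 2315.4 in positive cells and 1437.0 and 1303.4 in negative cells. Without that ID the CPM sums were 1621.0 and 1911.0 in positive cells and 1402.4 and 1287.5 in negative cells. The positive libraries stayed above the negative ones on both scales, and how much of the gap that ID carried depends on the scale. With 2 libraries against 2, an exact two-sided permutation test of such a sum cannot go below p = 0.333, so no test is given. The sum of the other δ-2 protocadherins went the opposite way, with 50.2 and 43.5 TPM in positive cells and 91.6 and 70.0 TPM in negative cells. Within that sum, pcdh8 (ENSDARG00000006467) and both PCDH18 IDs were called lower, PCDH10 (ENSDARG00000102824) was called higher and the rest were not called.

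The cadherin and protocadherin that mark blood vessel lining both rose in positive cells. VE-cadherin, cdh5 (ENSDARG00000075549), the main adhesion molecule of endothelial junctions, had 228.4 and 346.1 CPM in positive cells and 60.8 and 53.5 CPM in negative cells. Its fold change was 5.03, or 2.33 on the log2 scale (edgeR adjusted p 0.000239, SE 0.232). PCDH12 (ENSDARG00000076594), a protocadherin also called VE-cadherin-2 and known from mammalian endothelium, had 91.2 and 131.7 CPM in positive cells and 27.4 and 24.5 CPM in negative cells. Its level was 4.30-fold higher in positive cells (edgeR adjusted p 0.000291). In both genes the groups were well apart, and positive replicate 2 was higher than positive replicate 1. Both stayed called under each of the 12 alternatives, with log2 fold changes of 2.00 to 2.63 for cdh5 and 1.82 to 2.37 for PCDH12.

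Between the groups, the endothelial marker list moved with these 2 genes. It held 11 IDs, of which 10 were higher in positive cells, and its median log2 fold change was 1.82. Its summed level was 867.6 and 1094.0 TPM in positive cells and 624.9 and 516.2 TPM in negative cells, and each of its IDs was detected in each library. Its receptor genes kdrl and TIE1 had log2 fold changes of 2.03 and 1.99, while the receptor gene FLT4 had 0.73. Between the positive replicates the list was divided. Its tek (26.2 and 8.32 CPM), ERG (27.7 and 10.3 CPM) and sox18 (26.4 and 8.37 CPM) were higher in positive replicate 1. So was FLT4, by less (33.2 and 30.8 CPM), while the other IDs were higher in positive replicate 2, like cdh5 and PCDH12. The ID that was not called was etsrp, whose libraries overlapped (edgeR adjusted p 0.773, log2 fold change -0.09). The part of endothelial cell number in the rise of cdh5 and PCDH12 was not tested. In sorted bulk samples a larger share of cells of a type and more RNA per cell cannot be told apart, here or in the results that follow.

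Among the other classical type II cadherins, 2 abundant ones rose by slightly less than 2-fold and 2 scarcer ones fell. CDH11 (ENSDARG00000021442), known as a cadherin of mesenchymal cells, had 235.0 and 293.4 CPM in positive cells and 135.3 and 136.3 CPM in negative cells. The log2 fold change was 0.96 (edgeR adjusted p 0.00679, SE 0.182). The ID named cdh6 (ENSDARG00000014522), a cadherin known from kidney and neural crest, had 196.0 and 198.4 CPM in positive cells and 119.4 and 91.2 CPM in negative cells. The log2 fold change was 0.91 (edgeR adjusted p 0.0106, SE 0.188). In both genes the libraries of the groups were apart. Unlike cdh6, the pronephric marker list was lower in 7 of 8 IDs, with a median log2 fold change of -1.85. The neural crest list had 3 of 7 IDs lower and 1 higher, with a median of -1.17. How these tissues bear on the level of cdh6 was not tested. The call of CDH11 was lost without negative replicate 1 (0.95, adjusted p 0.0641) or 2 (0.98, adjusted p 0.0629), although the change itself hardly moved, and that of cdh6 without negative replicate 2 (0.73, adjusted p 0.102).

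The type II cadherins that fell have been described mainly in nervous tissue. CDH7 (ENSDARG00000023542) had 3.69 and 5.67 CPM in positive cells and 14.3 and 10.6 CPM in negative cells, a log2 ratio of -1.41 (edgeR adjusted p 0.00952, SE 0.286). The call was lost without negative replicate 1 (-1.18, adjusted p 0.0974). Its namesake cdh7b (ENSDARG00000017649) was not called, at 3.34 and 2.60 CPM in positive cells and 2.44 and 1.98 CPM in negative cells (edgeR adjusted p 0.43, log2 fold change 0.42, SE 0.318). The pair thus differed in direction as measured, but only the change of CDH7 passed the test and the difference between the copies was not tested.

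Of the genes named after cadherin 18, only cdh18a was called, and the difference between it and CDH18 was not tested. The scarce cdh18a (ENSDARG00000061371) had 33 and 49 counts in positive libraries and 141 and 88 counts in negative libraries, and fell by 1.49 on the log2 scale (edgeR adjusted p 0.0202, SE 0.357). The call was lost without negative replicate 1 (-1.17, adjusted p 0.165) and with limma on log2(TPM + 1) (-0.68, adjusted p 0.0728) or log2(TPM + 0.1) (-1.35, adjusted p 0.0717). CDH18 (ENSDARG00000102769) was more abundant and its libraries overlapped, with 30.1 and 25.4 CPM in positive cells and 18.5 and 28.4 CPM in negative cells (edgeR adjusted p 0.541, log2 fold change 0.25). The neural marker list was lower in positive cells in 9 of 10 IDs, with summed levels of 341.5 and 350.6 TPM in positive cells against 949.9 and 795.5 TPM in negative cells, and its part in the falls of CDH7 and cdh18a was not tested.

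The most abundant type I cadherins did not pass the test in either direction. N-cadherin, CDH2 (ENSDARG00000018693), which in zebrafish is needed for the shape of the neural tube and for heart development, had 247.8 and 338.6 CPM in positive cells and 347.8 and 293.6 CPM in negative cells. The libraries of the groups overlapped, and the log2 fold change was -0.13 (edgeR adjusted p 0.732, SE 0.206). It was the member of highest TPM in both negative libraries, at 96.0 and 72.0 TPM, and ranked 4 in both positive libraries, at 60.8 and 90.6 TPM. E-cadherin, cdh1 (ENSDARG00000102750), the cadherin of epithelia, had 214.3 and 232.8 CPM in positive cells and 141.6 and 172.7 CPM in negative cells. Both positive libraries were above both negative ones, but the log2 fold change of 0.51 was not called (edgeR adjusted p 0.0899, SE 0.18).

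The epidermal marker list was divided, with a median log2 fold change of -0.47. Of its 7 IDs, 1 was called higher and 2 were called lower in positive cells, krt4 (-1.12) and cldni (-1.26). The list's summed level was 1601.4 and 1358.8 TPM in positive cells and 1803.4 and 1376.1 TPM in negative cells. Much of that sum was krt8, the ID called higher, with 818.4 and 761.7 TPM in positive cells and 257.4 and 218.5 TPM in negative cells. How this list bears on the level of cdh1 was not tested. Type I cadherins made up 17.7% and 19.7% of the summed TPM of all members in positive libraries, against 35.4% and 38.5% in negative libraries, shares that also depend on the level of PCDH10 (ENSDARG00000099729). Levels of other members can be set against CDH2 within a library. On the TPM scale cdh1 was 1.26 and 1.00 times CDH2 in the positive libraries, against 0.594 and 0.857 times in the negative ones. CDH11 was 1.14 and 1.04 times CDH2 in positive libraries, against 0.471 and 0.56 times in negative ones, and cdh5 was 0.653 and 0.724 times, against 0.124 and 0.129 times. These ratios are descriptions of unequal change and carry no test.

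The type I cadherin that did fall was M-cadherin, CDH15 (ENSDARG00000068191), an adhesion molecule of skeletal muscle precursors. It had 62 and 57 counts in the positive libraries, against 422 and 234 counts in the negative libraries. In CPM it was 1.99 and 1.45 in positive cells and 11.7 and 6.92 in negative cells, 5.44-fold lower in positive cells. The log2 fold change was -2.44 (edgeR adjusted p 0.0014, SE 0.342), and it stayed called under each of the 12 alternatives.

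Paraxial protocadherin showed the largest decrease. The gene pcdh8 (ENSDARG00000006467), which goes by that older name in zebrafish, is known there from the mesoderm that forms the somites. It had 283 and 437 counts in the positive libraries, against 4277 and 3383 counts in the negative libraries. In CPM it was 9.08 and 11.1 in positive cells and 118.8 and 100.1 in negative cells. The groups were far apart, with a level 10.8-fold lower in positive cells, or -3.43 on the log2 scale (edgeR adjusted p 2.31e-05, SE 0.204). A second ID named PCDH8 (ENSDARG00000102185) had 20 and 8 counts in positive and 16 and 6 counts in negative libraries, and its change was not resolved at this depth (edgeR adjusted p 0.775, log2 fold change 0.40, SE 0.746).

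The somite and presomitic markers fell beside pcdh8 and CDH15. Of the 10 IDs in that list 9 were lower in positive cells, the median log2 ratio being -3.12, and its summed level was 160.2 and 115.2 TPM in positive cells, against 912.4 and 889.5 TPM in negative cells. The part of somite cell number in the decrease of these members was not tested.

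**Figure D3:**
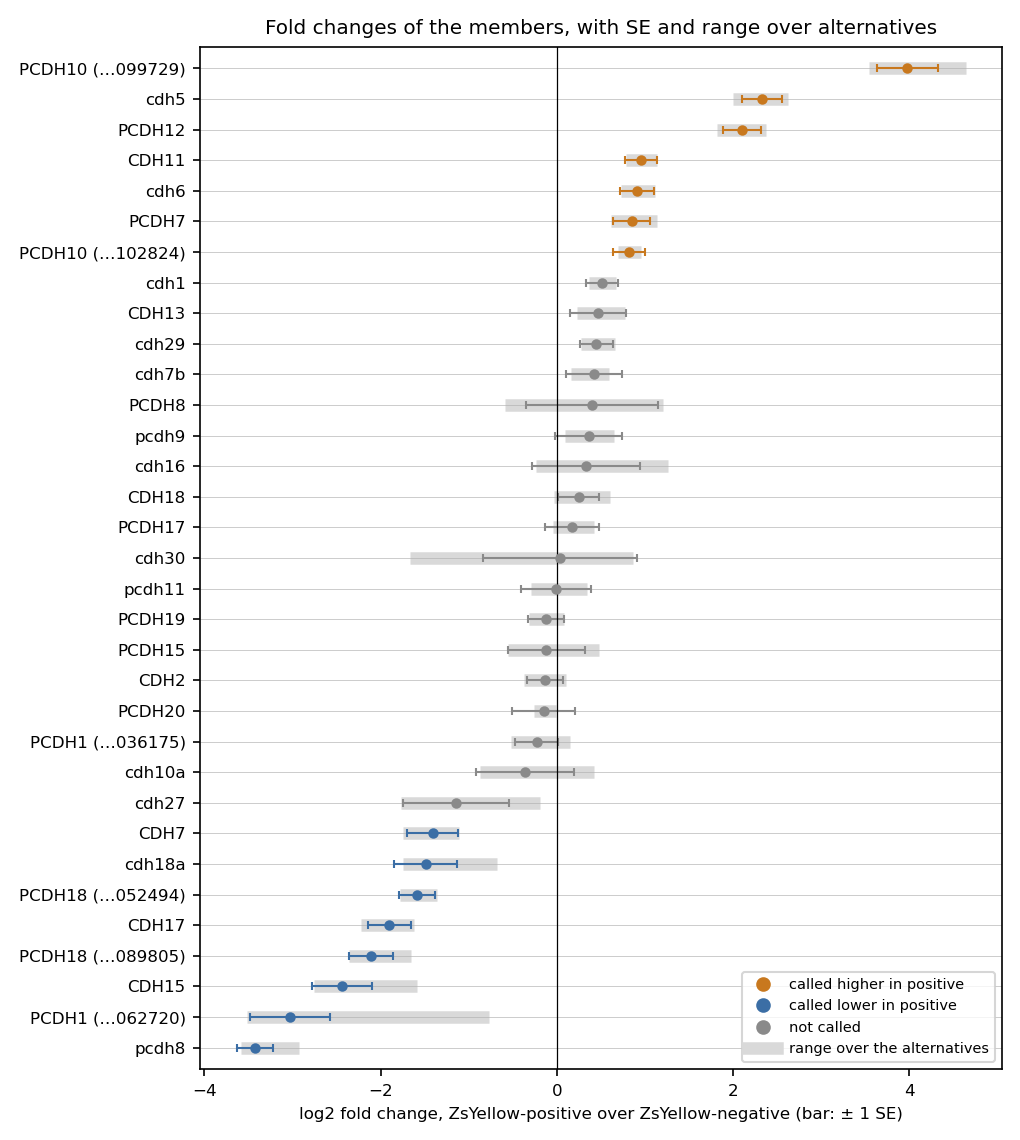
Log2 fold change of each member, ZsYellow-positive over ZsYellow-negative, as points with bars of 1 SE from edgeR, orange for the 7 called higher, blue for the 8 called lower and grey for the 18 not called. The pale band spans the values under the alternative settings, which were 12 for each called member, and for the called members it stays on 1 side of 0, with the widest band among them at PCDH1 (ENSDARG00000062720), from -3.52 to -0.77.

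Both IDs of another δ-2 protocadherin, PCDH18, fell. PCDH18 (ENSDARG00000052494) had 22.0 and 24.9 CPM in positive cells and 81.4 and 60.2 CPM in negative cells, a log2 ratio of -1.59 (edgeR adjusted p 0.0008, SE 0.202). PCDH18 (ENSDARG00000089805) had 6.58 and 5.67 CPM in positive cells and 31.6 and 21.3 CPM in negative cells, a log2 ratio of -2.11 (edgeR adjusted p 0.00058, SE 0.251). In each the groups were apart, and their sum, which does not depend on how reads were divided, was 28.6 and 30.6 CPM in positive cells and 113.0 and 81.5 CPM in negative cells.

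The remaining abundant δ-2 protocadherin did not pass the test. PCDH19 (ENSDARG00000034344), which in zebrafish acts with N-cadherin during neural tube formation, had 103.3 and 77.5 CPM in positive cells and 86.8 and 109.5 CPM in negative cells. The libraries of the groups overlapped (edgeR adjusted p 0.752, log2 fold change -0.12, SE 0.204).

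Of the δ-1 protocadherins, 1 rose and 1 fell. PCDH7 (ENSDARG00000060610), studied in frog embryos for its role in epidermal cell adhesion, had 54.7 and 49.5 CPM in positive cells and 34.1 and 23.7 CPM in negative cells, a log2 ratio of 0.85 (edgeR adjusted p 0.0229, SE 0.209). The groups were apart, but the call was lost without negative replicate 2 (0.62, adjusted p 0.168) and with limma on log2(TPM + 1) (0.78, adjusted p 0.1) or log2(TPM + 0.1) (0.85, adjusted p 0.0898). The IDs named PCDH1 differed in level and in result. PCDH1 (ENSDARG00000036175) had 26.3 and 32.5 CPM in positive cells and 42.5 and 26.4 CPM in negative cells and was not called (edgeR adjusted p 0.594, log2 fold change -0.23, SE 0.244).

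The scarce PCDH1 (ENSDARG00000062720) had 8 and 18 counts in the positive libraries, against 132 and 78 counts in the negative libraries. Its log2 fold change was -3.03 (edgeR adjusted p 0.00212, SE 0.458), the second largest decrease among the members, but its positive libraries hold so few counts that the size is loosely fixed. With limma on log2(TPM + 1), a scale that shrinks the changes of low genes, it was -0.77 and still called (adjusted p 0.0345). Summed over both IDs, PCDH1 was 26.5 and 33.0 CPM in positive cells and 46.1 and 28.7 CPM in negative cells, and the groups overlapped.

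Outside the classical and δ groups, CDH17 (ENSDARG00000005112) fell. It is known from the mammalian intestine as LI-cadherin and in zebrafish marks the pronephros, the embryonic kidney. It had 7.26 and 10.8 CPM in positive cells and 37.0 and 30.8 CPM in negative cells, 3.74-fold lower in positive cells (edgeR adjusted p 0.000805, log2 fold change -1.90, SE 0.241). The pronephric marker list was lower in 7 of 8 IDs, with summed levels of 25.1 and 23.1 TPM in positive cells and 92.5 and 82.5 TPM in negative cells, and its part in the change of CDH17 was not tested. The ID cdh29 (ENSDARG00000100131) had 52.2 and 48.5 CPM in positive cells and 32.2 and 41.7 CPM in negative cells. Its groups were apart by a small margin and it was not called (edgeR adjusted p 0.144, log2 fold change 0.45, SE 0.187).

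The other 10 members were CDH13, cdh10a, cdh16, cdh27, cdh30, pcdh9, pcdh11, PCDH15 (ENSDARG00000098257), PCDH17 and PCDH20. All lay between 0.0642 and 4.21 CPM in every library, and none was called, with log2 fold changes of -1.14 to 0.47 and edgeR adjusted p-values of 0.244 to 0.987. With their SEs of 0.305 to 0.872 on the log2 scale and 2 libraries per group, changes of that size and larger ones could be missed. The -1.14 of cdh27, with an SE of 0.601, was not called (edgeR adjusted p 0.244). Just above the count minimum stood cdh30, with 2 and 14 counts in positive and 11 and 4 counts in negative libraries. Just below it stood PCDH15 (ENSDARG00000008127), with 12 and 9 counts in positive and 8 and 4 counts in negative libraries. The 11 IDs below the minimum also included cdh4, known as R-cadherin, with 5 and 2 counts in positive and 7 and 11 counts in negative libraries.

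**Figure D4:**
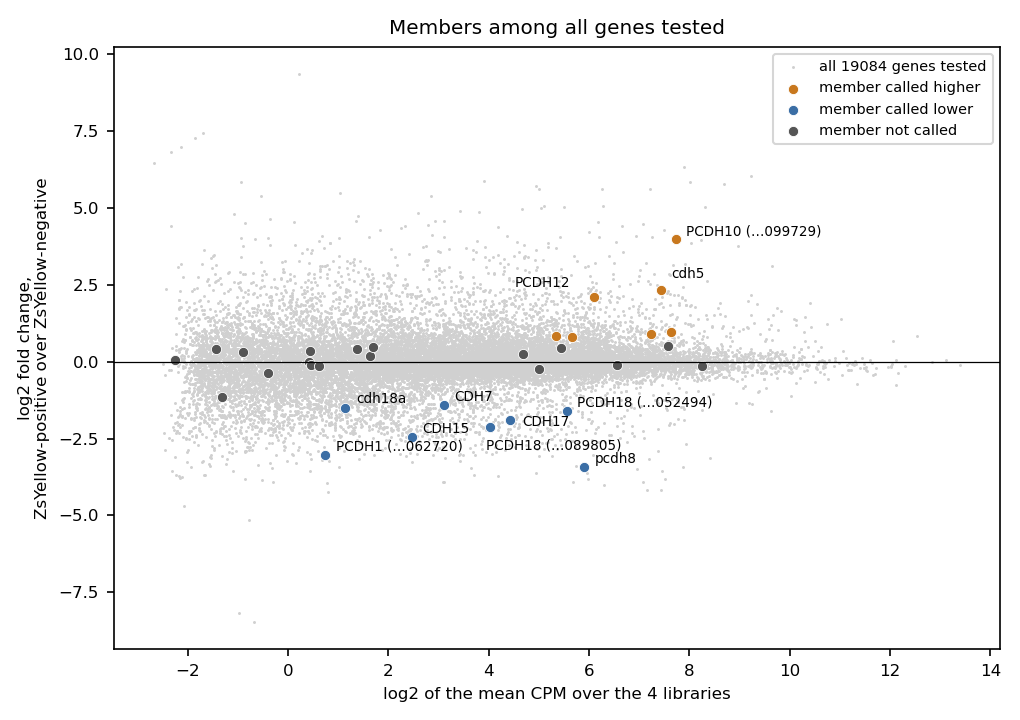
Log2 fold change, ZsYellow-positive over ZsYellow-negative, against the log2 of the mean CPM for all 19084 genes tested (pale points), with members called higher in orange, called lower in blue and not called in dark grey. The 7 members called higher all average 10 CPM or more, and 4 of the 8 called lower are below it.

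The proteins that work with cadherins were examined from 4 lists. Catenins and other links to actin had a median log2 fold change of 0.70 over 16 IDs, beside -0.01 over all genes. Of these IDs 5 were higher and 1 was lower, so that 37.5% were called, beside 17.1% of all genes tested. VCL (ENSDARG00000098695), vinculin, which reinforces junctions under tension, had 32.1 and 19.7 CPM in positive cells and 11.1 and 6.03 CPM in negative cells (edgeR adjusted p 0.0106, log2 fold change 1.60, SE 0.332). AFDN (ENSDARG00000029472), the nectin-binding protein afadin, had 76.6 and 60.9 CPM in positive cells and 21.4 and 31.4 CPM in negative cells (edgeR adjusted p 0.00319, log2 fold change 1.38, SE 0.226). The α-catenin-like CTNNAL1 also rose (1.29, edgeR adjusted p 0.0089), whereas ctnnd2b, a δ-catenin known from nervous tissue, fell (-1.58, edgeR adjusted p 0.000567). Outside the naming rule, and added after their values were seen, were the other called IDs of this list. The name JUP, plakoglobin, was shared by a more abundant ID (ENSDARG00000070787), which was not called (0.52, edgeR adjusted p 0.0917). That ID had 159.7 and 185.5 CPM in positive cells and 132.7 and 108.2 CPM in negative cells. The called JUP (ENSDARG00000059067) averaged under 10 CPM, with 92 and 150 counts in positive and 17 and 24 counts in negative libraries. It rose most among the called IDs (2.52, edgeR adjusted p 0.00224) and kept its call under every alternative. The β-catenin ctnnb2 rose by less (0.90, edgeR adjusted p 0.0324). Its call was lost without positive replicate 1 (0.51), negative replicate 1 (0.87) or negative replicate 2 (0.95). It was also lost with limma on log2(TPM + 1) (0.82, adjusted p 0.0524). The more abundant β-catenin ID, CTNNB1 (ENSDARG00000014571), also named after its values were seen, was not called (1.02, edgeR adjusted p 0.0615). It had 1607.9 and 736.4 CPM in positive cells and 610.3 and 543.1 CPM in negative cells, so its positive libraries differed widely. Without negative replicate 2 only 2 of the list were called higher, and VCL (1.24, adjusted p 0.0858) and CTNNAL1 (1.14, adjusted p 0.0963) were not among them.

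Desmosomes join cells through specialised cadherins to intermediate filaments. Of the 9 desmosome IDs tested, 4 were higher and 1 was lower, with a median of 0.62. The share called was 55.6%, beside 17.1% of all genes tested. DSP (ENSDARG00000076673), a desmoplakin, had 19.4 and 23.0 CPM in positive cells and 5.91 and 3.28 CPM in negative cells (edgeR adjusted p 0.00115, log2 fold change 2.20, SE 0.297). The plakophilin PKP3 (ENSDARG00000079438) had 55.8 and 68.1 CPM in positive cells and 17.5 and 15.8 CPM in negative cells (edgeR adjusted p 0.000235, log2 fold change 1.89, SE 0.187). The desmocollin dsc2l (ENSDARG00000039677), a desmosomal cadherin, had 80.0 and 100.2 CPM in positive cells and 34.9 and 27.8 CPM in negative cells (edgeR adjusted p 0.000959, log2 fold change 1.52, SE 0.199). In these 3 the groups were well apart. The more abundant DSP ID (ENSDARG00000022309) was not called (0.62, edgeR adjusted p 0.0527). The ID pkp3a was not called either and was lower in positive cells as measured (-0.33, edgeR adjusted p 0.222). The rise of pkp2 was small (0.79, edgeR adjusted p 0.0321) and lost its call without negative replicate 1 (0.66) or 2 (0.93). The call was also lost with upper-quartile factors (0.69, edgeR adjusted p 0.0556). With limma it was lost on log2(TPM + 1) (0.71, adjusted p 0.0823) and on log2(TPM + 0.1) (0.80, adjusted p 0.0678). The ID called lower was PKP1 (ENSDARG00000052705), a plakophilin that averaged under 10 CPM and is named after its values were seen (-1.21, edgeR adjusted p 0.0162). Its call was lost without negative replicate 1 (-1.10, adjusted p 0.123) or 2 (-1.31, adjusted p 0.0702), and no desmosome ID was called lower there, while without positive replicate 1 there were 2.

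Very large and atypical cadherins did not move together. Of 15 IDs tested, 4 were higher and 2 lower, with a median of -0.15. The share called was 40%, beside 17.1% of all genes tested. The largest rise was that of dchs1b (ENSDARG00000079850), a Dachsous cadherin that binds Fat cadherins, with 20.3 and 27.1 CPM in positive cells and 8.44 and 7.69 CPM in negative cells (edgeR adjusted p 0.00161, log2 fold change 1.56, SE 0.224). FAT2 fell (-1.30, edgeR adjusted p 0.00446), as did celsr1b, a planar polarity cadherin (-0.92, edgeR adjusted p 0.0155). FAT4, a partner of Dachsous, was called higher (0.69, edgeR adjusted p 0.0315). So were FAT1 (0.57, edgeR adjusted p 0.048) and CELSR1 (0.61, edgeR adjusted p 0.0339), the smallest called changes of the list, which were named after their values were seen. Without negative replicate 1 or 2 only 1 ID was called higher, and without positive replicate 1 there were 2. FAT4 was not called without positive replicate 1 (0.63, adjusted p 0.055), negative replicate 1 (0.75, adjusted p 0.129) or negative replicate 2 (0.64, adjusted p 0.194). FAT1 was not called without positive replicate 1 (0.53, adjusted p 0.098), negative replicate 1 (0.53, adjusted p 0.234) or negative replicate 2 (0.63, adjusted p 0.164), nor CELSR1 without negative replicate 1 (0.66, adjusted p 0.138) or 2 (0.57, adjusted p 0.192). The call of celsr1b was lost without negative replicate 1 (-0.94, adjusted p 0.0864) or 2 (-0.89, adjusted p 0.107), and that of FAT2 without negative replicate 2 (-1.20, adjusted p 0.053).

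Nectins, which cooperate with cadherins at junctions, and the proteases that cut cadherins made up the last list. Of its 10 IDs tested, 0 were called by edgeR at an adjusted p under 0.05, beside 17.1% of all genes tested. An unadjusted p under 0.05 was found for 3, beside 30.2% of all genes, and the DESeq2 Wald test called 1 higher. Without positive replicate 2, edgeR called 2 higher. The median log2 fold change of this list was 0.24.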

How the data were processed

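Per the labels' protocols, about 50 ng of RNA per sample entered a Clontech low-input kit with poly(A)-primed reverse transcription and tagmentation, and paired ends of 50 nt were read. The submitters' processing notes name BWA 0.7.12-r1039, bedtools 2.25.0.64 and Salmon 1.2.1, and the builds Zv9/danRer7 and GRCz11/danRer11, without saying which made the table. The use of strand and of molecular identifiers is not given in the sources used here. Precision is given as the edgeR SE, which rests on the spread between libraries as well as on counting error. Per the file headers, the deposited values are estimated counts, already whole numbers, and log2(TPM + 1), from which TPM was recovered.

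Counts were tested with edgeR 4.0.16 (quasi-likelihood F test, TMM, filterByExpr with a minimum count of 10 and total of 15) in R 4.3.3, with all 4 libraries and no covariate, and p-values were adjusted over all genes tested. An SE is the fold change on the log2 scale, without its sign, over the root of F. CPM uses TMM-scaled totals of the genes tested. The procedure was run on counts simulated from edgeR's own fitted model with planted changes, which cannot show whether that model suits these libraries. Alternatives used DESeq2 1.42.0 and limma 3.58.1 among others. Gene names came from a table naming 23599 of 25873 IDs. Members with a call, an average of 10 CPM or more or the name of a called member are given in full, and per partner list up to 4 called genes, those with the largest changes among genes averaging 10 CPM or more, could be named. Partner and marker lists were matched by symbol, and a name shared by several IDs brought in each of them. Members and lists were chosen with earlier results of these data known. The labels do not say whether replicates came from separate sorts, so p-values measure the spread between these samples, which may be technical.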

Additional observations from a re-analysis of the deposited data

How the results depend on the processing

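Each called member kept its direction under the 12 alternatives tried for it, and 9 of the 15 stayed called in all of them. The numbers of members called higher and lower, 7 and 8, were the same with DESeq2 size factors, upper-quartile factors, both filters, the DESeq2 Wald test and the replicate block, and were 5 and 7 with limma on either TPM scale. Leaving out 1 library gave 3 to 7 members higher, and over all genes 852 to 2446 higher and 747 to 1846 lower. Upper-quartile factors moved the median of all genes to -0.11. Counting overlap on TPM, chosen after seeing the data, gave the same 12 above and 10 below.

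The partner lists moved more. Catenins and anchors called higher were 8 with the DESeq2 Wald test and 2 to 6 with a library left out. Desmosome IDs called higher were 3 with upper-quartile factors and 3 with limma on either TPM scale. They were 5 with DESeq2 size factors, without the low-count filter and with the DESeq2 Wald test. Desmosome IDs called lower were 0 to 2 with a library left out. Atypical cadherins called higher were 1 with upper-quartile factors and 1 with limma on either TPM scale, 2 with the replicate block and 1 to 4 with a library left out. Those called lower were 1 with limma on either scale and 0 to 2 with a library left out. Nectins and proteases called higher were 1 without the low-count filter, 1 with the DESeq2 Wald test, 1 with the replicate block and 0 to 2 with a library left out, and called lower 1 with limma on log2(TPM + 0.1). The causes were not tested.

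Changes of sign were seen in members that were not called. With a library left out, log2 fold changes ran from -0.37 to 0.11 for CDH2, -0.03 to 0.60 for CDH18, -0.87 to 0.42 for cdh10a, -0.29 to 0.34 for pcdh11, -0.52 to 0.15 for PCDH1 (ENSDARG00000036175), -0.59 to 1.21 for PCDH8, -0.04 to 0.42 for PCDH17, -0.31 to 0.08 for PCDH19, -0.24 to 1.26 for cdh16, -1.67 to 0.86 for cdh30 and -0.55 to 0.48 for PCDH15. The value of pcdh11 was 0.00 with DESeq2 size factors, 0.01 without the filter, 0.00 with the DESeq2 Wald test and 0.01 with the replicate block. That of cdh30 was -0.06 with upper-quartile factors, -0.00 with limma on log2(TPM + 1), -0.05 on log2(TPM + 0.1) and -0.08 with the replicate block.

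The replicate block pairs libraries by number, and the differences between replicates correlated at -0.0923 between the groups over 19084 genes, so the numbers are not treated as pairs. Under the block no member gained or lost a call. DESeq2 gave cdh30 no adjusted p. Of the 16 members that averaged under 10 CPM, 4 were called and 12 were not, and whether greater depth would change this was not tested.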
